A study of Mus musculus with 20 samples.

Results

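The 33 genes described here carry calcium cycling, sodium handling and electrical conduction in the heart, and they were followed across all 6 groups of a fenofibrate feeding experiment in MuRF1-deficient and wild-type mice. They were chosen by gene name, older synonyms included, and each gene was read from its brightest heart probe. A probe was found for 32 of the 33, and the exception was Scn4b, a sodium channel beta subunit, which was not analysed here. The pacemaker channel gene Hcn4 was well above background on only 1 of 20 arrays and was not tested, so that 31 genes entered the fit over 14566 tested genes.

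The hearts came from MuRF1 -/- mice fed 0.05% (w/w) fenofibrate in chow for 8 weeks (n = 3) or 3 weeks (n = 4) or plain chow for 8 weeks (n = 3), and from MuRF1 +/+ mice fed fenofibrate for 8 weeks (n = 3) or 3 weeks (n = 4) or plain chow for 8 weeks (n = 3). MuRF1, encoded by Trim63, is a muscle ubiquitin ligase, and fenofibrate activates the nuclear receptor PPAR alpha. Each array set heart RNA in the red channel against pooled RNA of whole C57BL/6 newborn pups in the green channel, and a level is the log2 ratio of heart over this common pool, so levels of different genes are not compared. Because plain chow was given for 8 weeks only, the 3-week hearts had no control of the same duration, and the 3-week and 8-week responses of a genotype share their chow hearts. The labels give no sex, strain or age for the hearts (the series text calls the groups strain-matched and gives 3 to 8 weeks as an age) and do not say how the MuRF1 deletion was made, whether in all cells or in some.

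In a heart muscle cell, the action potential opens L-type calcium channels in the transverse tubules, and the entering calcium opens ryanodine receptors in the facing sarcoplasmic reticulum, which releases the calcium that drives contraction. Junctophilin holds the facing membranes together, calsequestrin and other luminal proteins store calcium beside the release channel, and the pump SERCA, restrained by phospholamban, takes it back up while the sodium-calcium exchanger and the sodium pump export calcium and sodium. Connexins join the cells electrically, and CaM kinase II tunes the channels and pumps in response to calcium.

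The promoter windows of Itpr2, Jph2 and Casq2 are printed because these genes stand for 3 patterns in the data: Itpr2 was higher after 3 weeks of fenofibrate, Jph2 was lower after fenofibrate in 3 of the 4 comparisons with chow, and Casq2 was lower after 8 weeks in MuRF1 +/+ hearts. Each window runs from 250 bases before to 50 bases after the gene's start (RefSeq, GRCm38.p6), 5′ to 3′ on the strand of the gene. Capitals mark matches, on either strand, to AGGTCA (the nuclear receptor half-site), to GGGCGG (the GC box) or to the MEF2 consensus. For Jph2, RefSeq has a second start close by, and 1 window is shown. The Itpr2 window lies at chr6:146502174-146502473 on the minus strand, the Jph2 window at chr2:163397944-163398243 on the minus strand and the Casq2 window at chr3:102086165-102086464 on the plus strand.
Itpr2: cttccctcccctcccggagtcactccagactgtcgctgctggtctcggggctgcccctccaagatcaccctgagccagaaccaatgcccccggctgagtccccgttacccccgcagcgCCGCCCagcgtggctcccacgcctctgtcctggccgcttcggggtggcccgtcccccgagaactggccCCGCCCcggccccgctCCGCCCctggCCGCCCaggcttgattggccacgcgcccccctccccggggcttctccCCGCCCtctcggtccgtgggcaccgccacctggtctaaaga
Jph2: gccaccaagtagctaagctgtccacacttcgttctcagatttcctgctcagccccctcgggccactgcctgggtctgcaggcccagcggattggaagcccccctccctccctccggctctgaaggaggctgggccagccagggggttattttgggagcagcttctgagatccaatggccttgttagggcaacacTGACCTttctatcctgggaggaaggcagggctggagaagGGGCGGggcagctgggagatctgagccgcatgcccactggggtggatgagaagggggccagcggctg
Casq2: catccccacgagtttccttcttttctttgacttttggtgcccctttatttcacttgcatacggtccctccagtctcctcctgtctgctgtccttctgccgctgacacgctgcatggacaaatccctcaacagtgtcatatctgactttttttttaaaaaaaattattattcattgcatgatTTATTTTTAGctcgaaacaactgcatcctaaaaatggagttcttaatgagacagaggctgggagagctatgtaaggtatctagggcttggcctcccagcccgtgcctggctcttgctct

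Of the 33 genes, 22 had a window in the RefSeq table, with 26 windows in all. AGGTCA or its reverse complement was found in 4 of the 26 (both Jph2 windows, Hcn2 and Ryr2), against 16.3% of all 32851 promoter windows. That half-site repeated head to tail with a single base between, the classical PPAR element, was found in 0 of the 26 and in 0.0396% of all windows. GGGCGG was found in 16 of the 26, against 35.7% of all, and the MEF2 consensus in 1 (Casq2), against 1.86% of all. The TATAAA box was found in 2 (Fxyd1 and Pln), against 13.6% of all. Median GC content was 63.3% in these windows and 52.7% in all windows. A match is a run of letters and not a measured binding site.

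Between 34.0% and 51.9% of heart probes were well above background per array, no heart spot was saturated, and the number of arrays limits the precision. Trim63 lay between -1.19 and -0.49 in the 10 MuRF1 -/- hearts and between 0.79 and 2.85 in the 10 MuRF1 +/+ hearts, so genotype labels and signal separate without overlap. The sources used here do not place the Trim63 probe relative to the deletion. Other signals moved with the groups in 2 ways. First, the Y-linked Ddx3y lay between -1.22 and -0.17 in all 8 of the 3-week hearts, the 3 MuRF1 +/+ 8-week hearts and MuRF1 -/- 8-week replicate 2, but at 1.47 and 1.30 in MuRF1 -/- 8-week replicates 1 and 3 and between 1.29 and 1.74 in all 6 chow hearts. Diet and Y-linked signal therefore cannot be told apart in the MuRF1 +/+ comparisons with chow or in the MuRF1 -/- comparison at 3 weeks. At 8 weeks the genotypes differed in this signal in part, since it was high only in MuRF1 -/- replicates 1 and 3. That bears on the genotype comparison at 8 weeks and on the difference of 8-week responses. Second, MuRF1 +/+ 8-week replicate 2 and MuRF1 -/- 3-week replicate 4 stand apart from the other arrays: the first held the lowest or highest of all 20 values for 15 of the 31 genes, and the second for 10 of 31. The endothelial marker list (8 of 8 tested) averaged 1.70 on the first of these arrays, while the other 2 MuRF1 +/+ 8-week arrays read 0.56 and 0.68 and the MuRF1 +/+ chow arrays lay between 0.28 and 0.35. The atrial transcript Myl7 stood at 0.94 on MuRF1 -/- 3-week replicate 4, and Bmp10, which defines atrial muscle, was well above background on 0 arrays. The part of these signals in the results was not tested, except where values without those arrays are given.

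Of the 31 genes, 17 passed the threshold (limma, Benjamini-Hochberg adjusted p under 0.05 over all 14566 genes) in at least 1 comparison and 14 in none. After 8 weeks, 0 of 31 passed in MuRF1 -/- hearts, where 2.23% of all genes did. The same limma fit gave 5 with an unadjusted p under 0.05 (16.1%, against 13% of all genes). After 3 weeks, 6 of 31 passed in MuRF1 -/- hearts (19.4%), against 26.5% of all genes. In MuRF1 +/+ hearts, 8 of 31 passed after 8 weeks (25.8%, all lower), against 14.8% of all genes, 8.98% of them lower. At 3 weeks 9 of 31 passed in MuRF1 +/+ hearts (29.0%), against 24.5% of all genes. Shares near the background are not a result about these genes. Cacnb2 entered the tests only through the 3-week arrays on which it was bright, so its 4 calls are given as a description, and without it the counts at 3 weeks were 5 of 30 in MuRF1 -/- hearts and 8 of 30 in MuRF1 +/+ hearts. Without the 2 arrays that stand apart, the counts of 31 in MuRF1 -/- hearts were 4 at 8 weeks (12.9%, against 6.97% of all genes) and 6 at 3 weeks (19.4%, against 36.4%). In MuRF1 +/+ hearts they were then 8 at 8 weeks (25.8%, against 10.8%) and 13 at 3 weeks (41.9%, against 36.3%). The median difference of the 31 genes from chow at 8 weeks was -0.13 in MuRF1 -/- hearts, where it was -0.0078 over all genes, and -0.32 in MuRF1 +/+ hearts, where it was 0.029. At 3 weeks the medians were -0.067 in MuRF1 -/- hearts (-0.008 over all genes) and -0.027 in MuRF1 +/+ hearts (0.0099 over all genes).

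**Figure D1:**
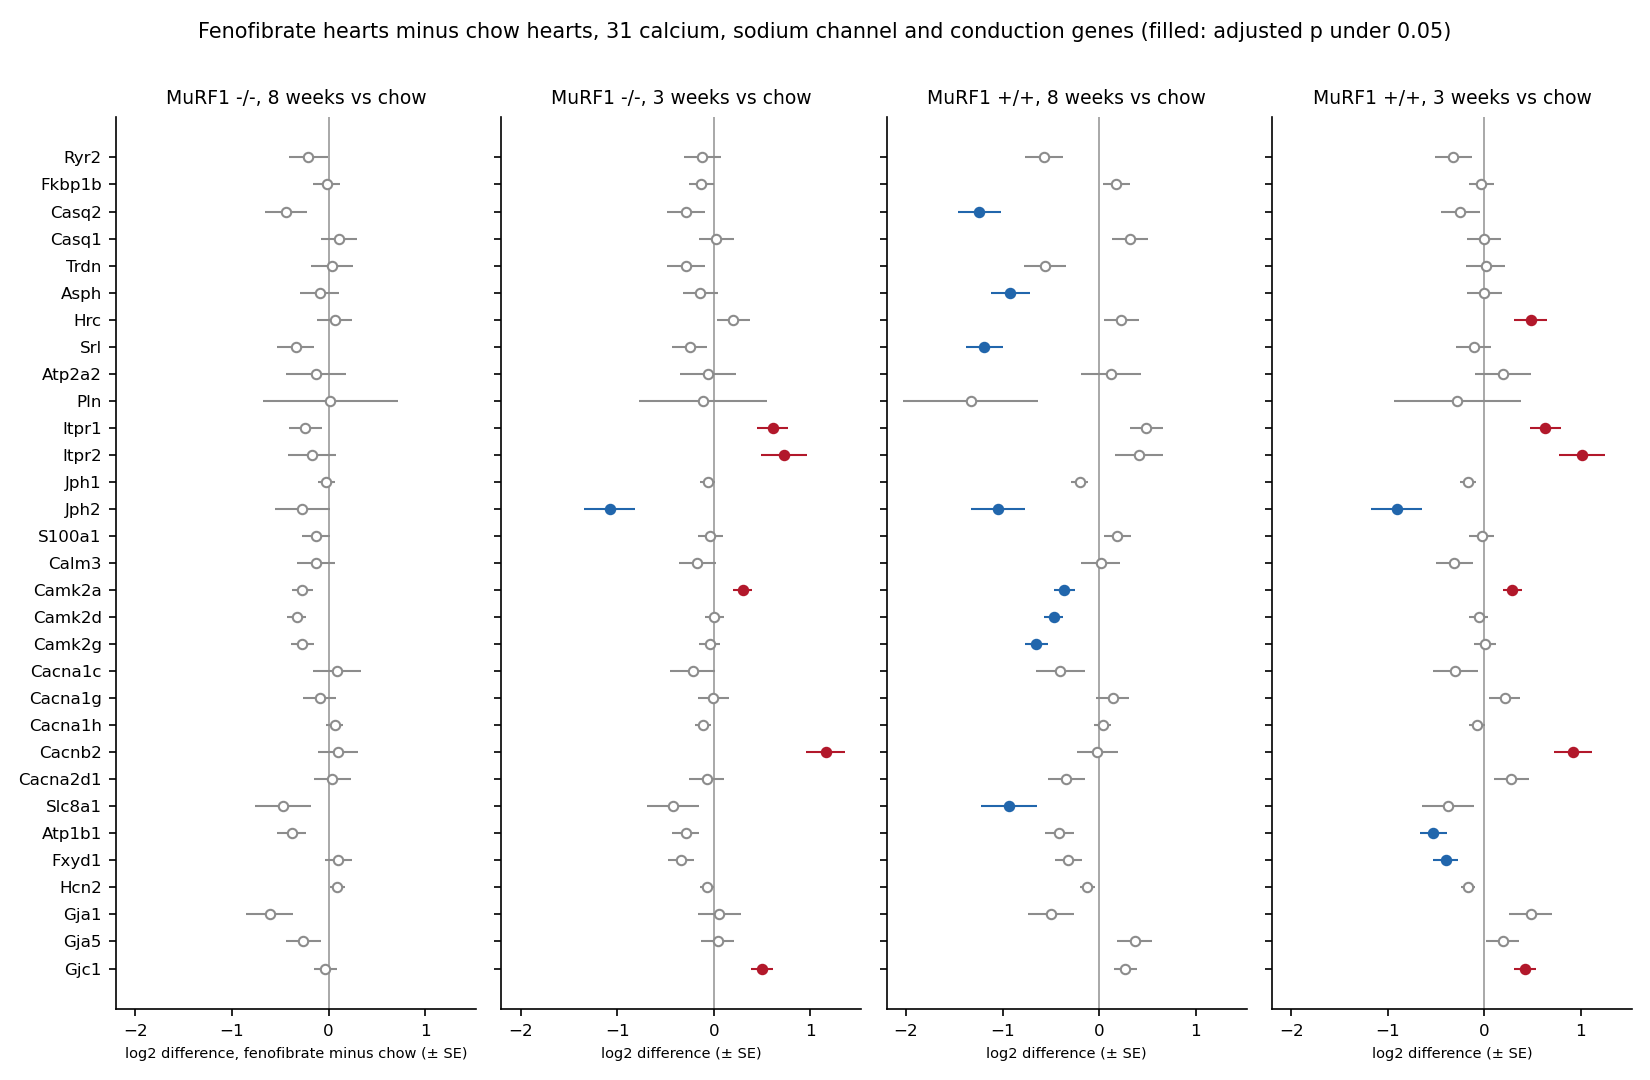
Difference between fenofibrate and chow hearts (log2, ± SE of the fit) for the 31 tested genes, with 1 panel for each genotype and duration; filled points passed an adjusted p of 0.05, red higher and blue lower. In MuRF1 -/- hearts at 8 weeks no point is filled, and in MuRF1 +/+ hearts at 8 weeks all 8 filled points are below 0.

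The inositol trisphosphate receptors, calcium release channels of the nuclear envelope and reticulum, were higher after 3 weeks of fenofibrate in both genotypes. Itpr1 stood at 0.22, 0.056, 0.37 and 0.68 in MuRF1 -/- 3-week hearts, against -0.22, -0.36 and -0.25 in MuRF1 -/- chow hearts. In MuRF1 +/+ mice it stood at 0.31, 0.27, 0.31 and 0.20 in 3-week hearts, against -0.50, -0.20 and -0.36 in chow hearts. Every 3-week heart lay above every chow heart of its genotype. The rise was 0.61 ± 0.16 (log2, SE, limma adjusted p = 0.00851) in MuRF1 -/- hearts and 0.63 ± 0.16 (adjusted p = 0.00748) in MuRF1 +/+ hearts, or 1.53-fold and 1.55-fold. Markers of other cell types moved at 3 weeks too: 2 of 8 endothelial and 2 of 7 fibroblast markers rose in MuRF1 -/- hearts, and 2 of 8 and 4 of 7 in MuRF1 +/+ hearts. Of all 14566 genes, 2091 rose in MuRF1 -/- hearts and 1789 in MuRF1 +/+ hearts. The endothelial list averaged between 0.58 and 0.96 in MuRF1 -/- 3-week hearts, against 0.21 to 0.46 on chow, and between 0.68 and 0.87 in MuRF1 +/+ 3-week hearts, against 0.28 to 0.35 on chow. The fibroblast list averaged between -2.44 and -1.87 in MuRF1 -/- 3-week hearts, against -2.93 to -2.42 on chow, and between -2.37 and -2.0 in MuRF1 +/+ 3-week hearts, against -2.89 to -2.76 on chow. The atrial list (5 of 6 tested) averaged between -1.51 and -0.24 in MuRF1 -/- 3-week hearts, against -1.72 to -1.46 on chow, and between -1.13 and -0.92 in MuRF1 +/+ 3-week hearts, against -1.76 to -1.50 on chow. The part of these cell types in the 3-week differences of the genes described here was not tested.

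Itpr2, the receptor that predominates in heart muscle, stood at 0.09, -0.22, 0.32 and 0.73 in MuRF1 -/- 3-week hearts, against -0.40, -0.60 and -0.49 in MuRF1 -/- chow hearts. In MuRF1 +/+ mice it stood at 0.61, 0.33, 0.37 and 0.55 in 3-week hearts, against -0.45, -0.63 and -0.54 in chow hearts. The groups did not overlap in either genotype. The rise was 0.73 ± 0.24 (limma adjusted p = 0.0303) in MuRF1 -/- hearts and 1.01 ± 0.24 (adjusted p = 0.00522), a 2.01-fold change, in MuRF1 +/+ hearts. The MuRF1 -/- rise was 0.56 without the 2 arrays that stand apart, and 5 of the 7 fits that left out 1 array of its 2 groups ended its call. At 8 weeks, Itpr2 in MuRF1 -/- hearts (-0.67, -0.62 and -0.73) lay below every chow heart, without passing. In MuRF1 +/+ 8-week hearts it read -0.73, below every chow heart, and -0.37, above every chow heart, while replicate 2 read 0.72. Itpr1 likewise read 0.65 on that array, against -0.24 and 0.0021 on the other 2.

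**Figure D2:**
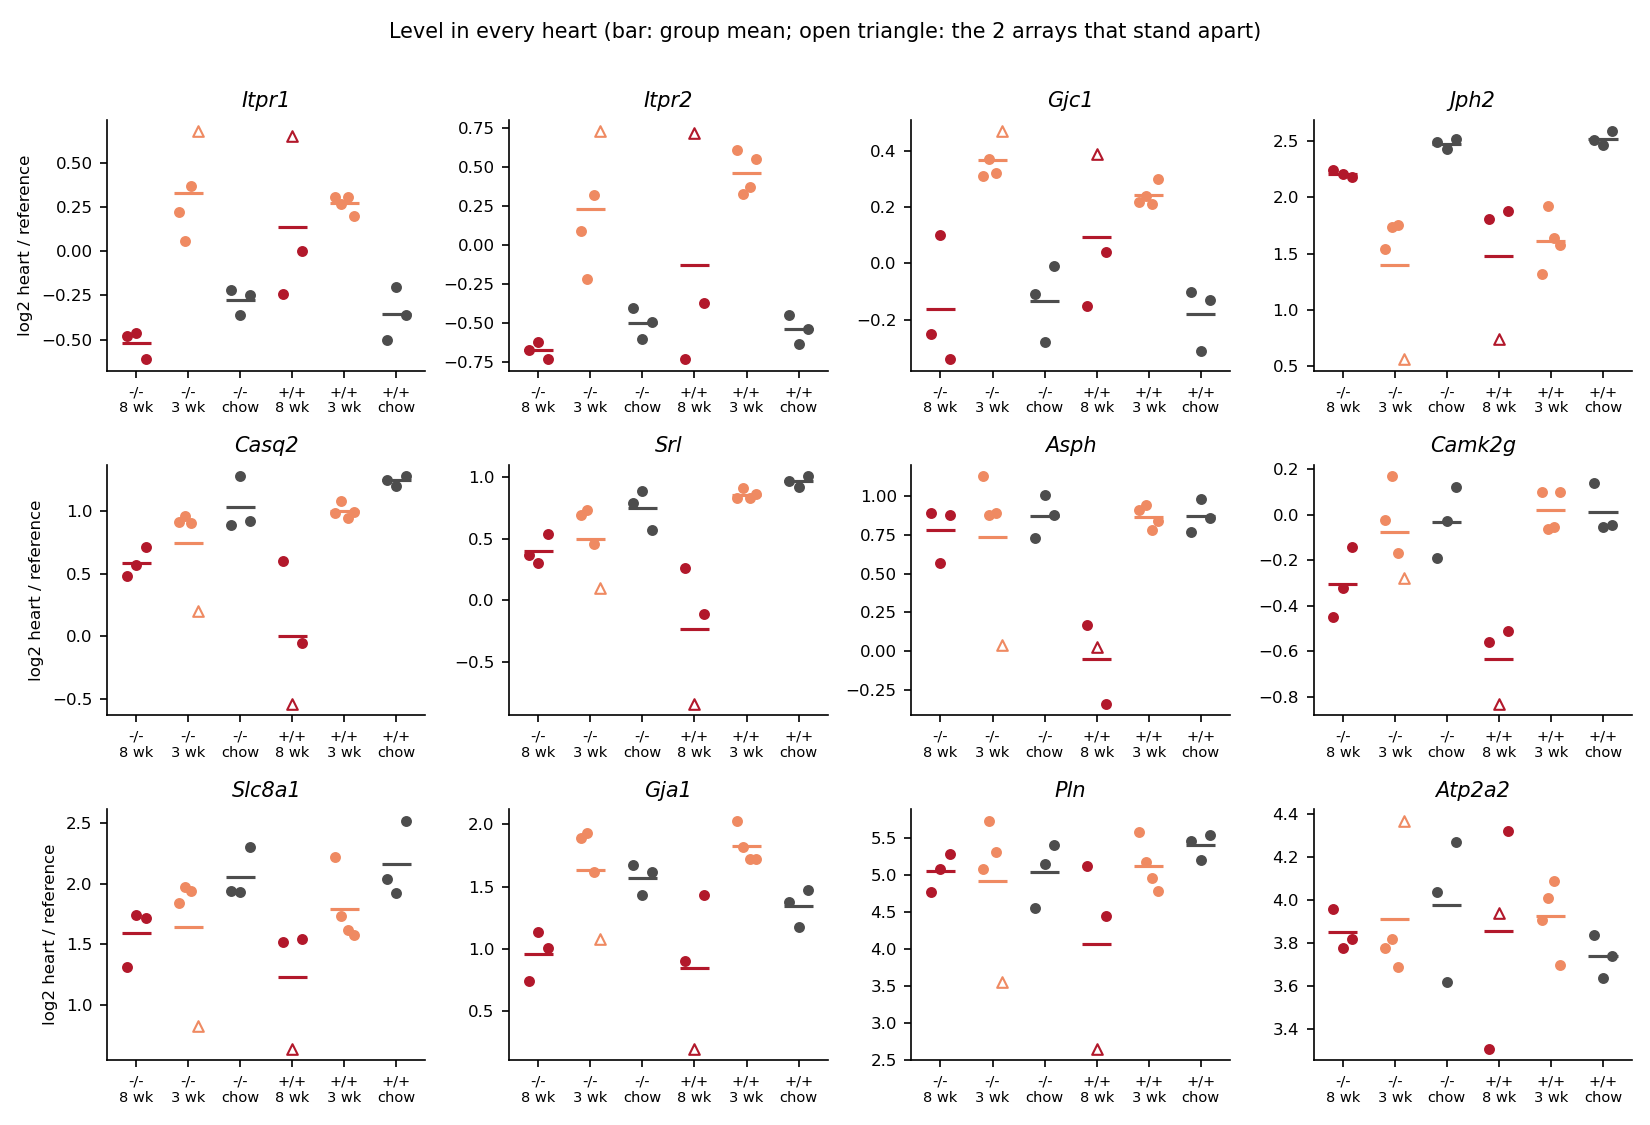
Level (log2 heart over newborn reference) of 12 genes in every heart, by genotype and diet; the bar is the group mean and open triangles are MuRF1 -/- 3-week replicate 4 and MuRF1 +/+ 8-week replicate 2. Itpr1, Itpr2 and Gjc1 are higher in all 3-week hearts than in chow hearts, Jph2 is lower, and Casq2, Srl and Asph have their lowest group means in MuRF1 +/+ 8-week hearts.

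Junctophilin 2 (Jph2), the tether between transverse tubule and reticulum, was lower after 3 weeks in both genotypes and after 8 weeks in MuRF1 +/+ hearts. It stood at 1.54, 1.74, 1.75 and 0.56 in MuRF1 -/- 3-week hearts, against 2.49, 2.43 and 2.52 in MuRF1 -/- chow hearts. In MuRF1 +/+ mice it stood at 1.32, 1.92, 1.64 and 1.58 in 3-week hearts and at 1.81, 0.74 and 1.88 in 8-week hearts, against 2.51, 2.47 and 2.59 in chow hearts. All of these fenofibrate hearts lay below all chow hearts of their genotype. Jph2 fell by 1.08 (log2, SE 0.26, limma adjusted p = 0.00559) in MuRF1 -/- 3-week hearts, by 0.91 (SE 0.26, adjusted p = 0.0169) in MuRF1 +/+ 3-week hearts and by 1.05 (SE 0.28, adjusted p = 0.019) in MuRF1 +/+ 8-week hearts. Without the 2 arrays that stand apart the differences were -0.80, -0.91 and -0.68 in the same order, each past the threshold. A second Jph2 probe differed by -1.24 in MuRF1 -/- 3-week hearts, by -1.77 in MuRF1 +/+ 3-week hearts and by -1.39 in MuRF1 +/+ 8-week hearts. Jph2 in MuRF1 -/- 8-week hearts read 2.24, 2.21 and 2.18, also below all 3 chow hearts, with a difference of -0.27 that did not pass. Jph1, the junctophilin of skeletal muscle, was well above background on only 3 arrays and passed in no comparison.

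Among the CaM kinase II genes, Camk2a, best known from brain, was higher after 3 weeks, at 0.58, 0.52, 0.60 and 0.72 in MuRF1 -/- 3-week hearts, against 0.21, 0.17 and 0.53 in MuRF1 -/- chow hearts. In MuRF1 +/+ mice it stood at 0.72, 0.48, 0.65 and 0.63 in 3-week hearts, against 0.39, 0.30 and 0.30 in chow hearts. The MuRF1 -/- groups overlap in 1 chow heart and the MuRF1 +/+ groups do not overlap. The rises were small, 0.30 ± 0.10 (limma adjusted p = 0.0367) and 0.29 ± 0.10 (adjusted p = 0.047), and the first did not pass without the 2 arrays that stand apart (adjusted p = 0.0522). Its second probe was well above background on all 8 of the 3-week arrays and on 0 of the chow arrays, and read 1.6 ± 0.85 (SD, n = 4) in MuRF1 -/- 3-week hearts, against 0.079 ± 0.078 (n = 3) in chow hearts. That probe was at least 2.49-fold brighter in MuRF1 -/- 3-week hearts than in chow hearts, and at least 1.96-fold in MuRF1 +/+ hearts. A bound of this kind sets the mean of the bright group against, on each dim array, the higher of the probe's own signal and the lowest signal called well above background. The second Camk2a probe was bright on enough arrays to be used only through the 3-week groups, so it had to differ there. Its values are a description with no test.

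Cacnb2, the beta subunit of the L-type calcium channel, was read from a probe that was well above background on all 8 of the 3-week arrays and on 0 of the other 12. It stood at 0.93, 0.55, 1.91 and 0.86 in MuRF1 -/- 3-week hearts, against -0.08, -0.06 and -0.15 in MuRF1 -/- chow hearts. In MuRF1 +/+ mice it stood at 1.08, 1.01, 0.77 and 1.09 in 3-week hearts, against -0.02, 0.018 and 0.22 in chow hearts. The groups did not overlap, and the probe was at least 2.05-fold higher in MuRF1 -/- 3-week hearts and at least 1.78-fold higher in MuRF1 +/+ 3-week hearts. It met the minimum for testing only through those bright arrays, so it had to differ, and its values are a description with no test. The 2 other Cacnb2 probes gave no such change: they differed by 0.063 and 0.087 in MuRF1 -/- hearts and by -0.15 and -0.062 in MuRF1 +/+ hearts. The difference in Cacnb2 was thus seen by 1 of its 3 probes.

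**Figure D3:**
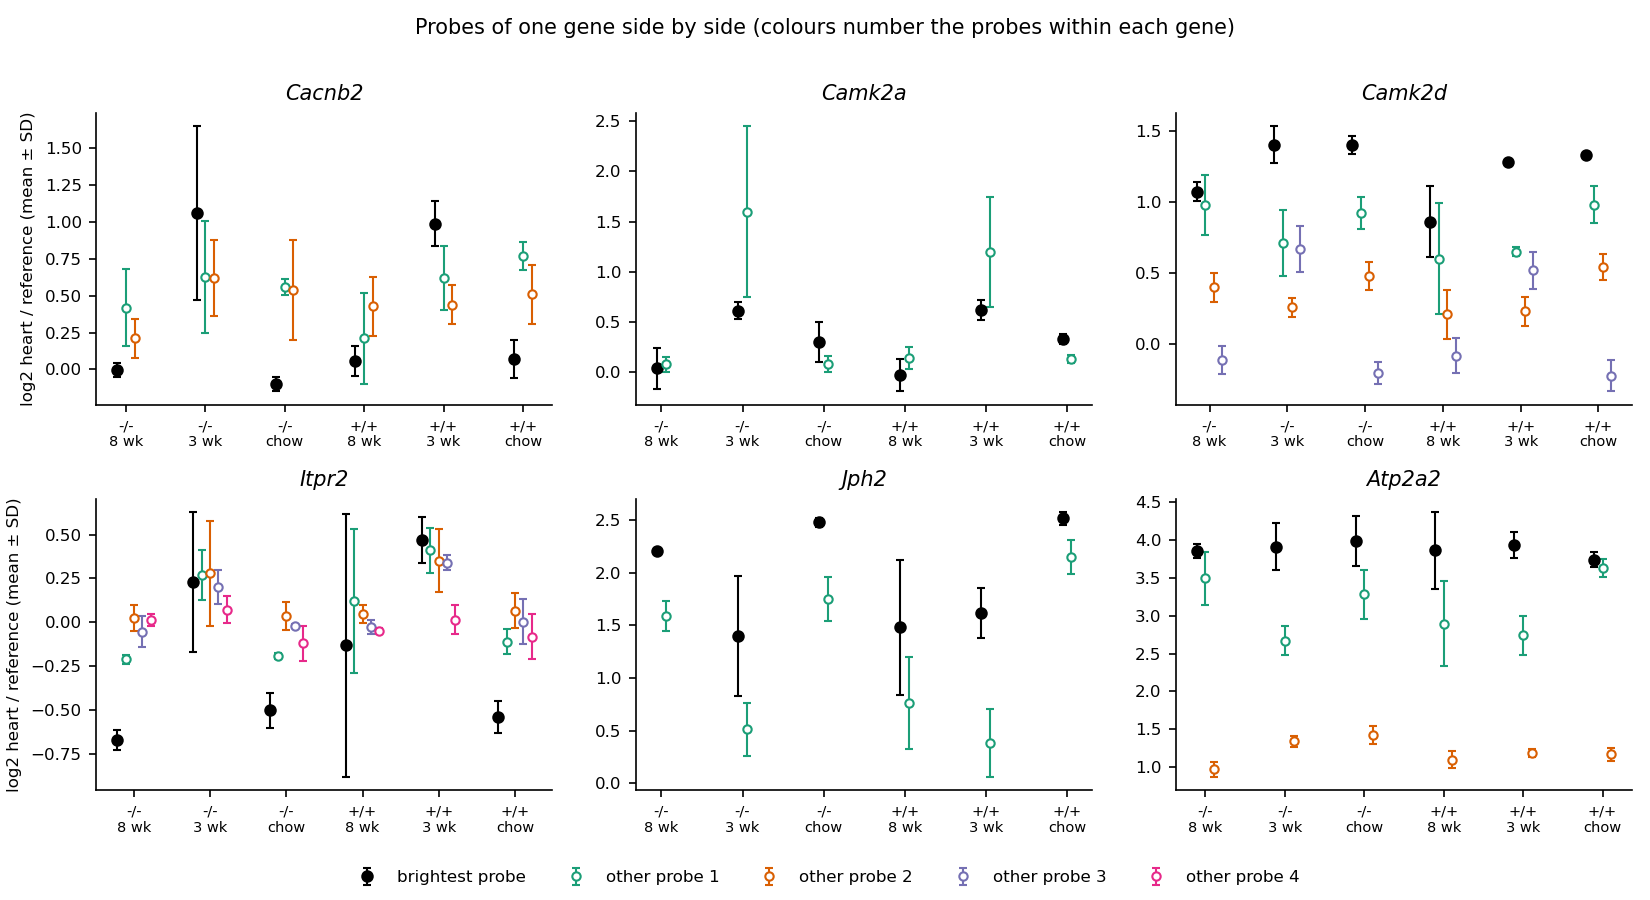
Mean level ± SD (log2 heart over reference) of every measured probe of 6 genes, by genotype and diet; filled points are the brightest probe, on which the tests were run, and open points the other probes. For Cacnb2 and Camk2d 1 probe stands out at 3 weeks while the others do not follow, whereas both Jph2 probes are lower at 3 weeks than on chow. The other Camk2d probes averaged alike or lower at 3 weeks than on chow.

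The probes of Camk2d, the main heart isoform, were split in another way. Its brightest probe hardly differed at 3 weeks, by 0.0034 in MuRF1 -/- hearts and -0.058 in MuRF1 +/+ hearts, and neither passed. A dim Camk2d probe, well above background on all 8 of the 3-week arrays and on 0 chow arrays, was at least 1.72-fold brighter in MuRF1 -/- 3-week hearts and at least 1.61-fold brighter in MuRF1 +/+ 3-week hearts than in chow hearts. Like the Cacnb2 probe, it was bright on enough arrays only through the 3-week groups, so its values are a description with no test. The other measured Camk2d probes averaged lower at 3 weeks. They read 0.71 against 0.92 on chow and 0.26 against 0.48 in MuRF1 -/- hearts, and 0.65 against 0.98 and 0.23 against 0.54 in MuRF1 +/+ hearts. For 31 of the 41 called differences the gene had another measured probe, and for 5 of these 31 at least 1 such probe had the opposite sign.

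Gjc1, the gap junction protein of the conduction system, stood at 0.31, 0.37, 0.32 and 0.47 in MuRF1 -/- 3-week hearts, against -0.11, -0.28 and -0.0074 in MuRF1 -/- chow hearts. In MuRF1 +/+ mice it stood at 0.22, 0.24, 0.21 and 0.30 in 3-week hearts, against -0.10, -0.31 and -0.13 in chow hearts. No 3-week heart reached down to a chow heart, and the rises were 0.50 ± 0.11 (limma adjusted p = 0.00385) and 0.42 ± 0.11 (adjusted p = 0.0119). A second Gjc1 probe also averaged higher in 3-week hearts of both genotypes, at 0.061 ± 0.084 (SD) in MuRF1 -/- hearts against -0.39 ± 0.023 on chow, and at -0.051 ± 0.049 in MuRF1 +/+ hearts against -0.39 ± 0.011 on chow. Gja1, the main ventricular connexin, and Gja5, of atrium and fast conduction fibres, did not pass at 3 weeks in either genotype.

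A further 3 genes passed at 3 weeks in MuRF1 +/+ hearts. Hrc, a calcium-binding protein of the reticulum lumen, read 3.17, 3.12, 3.16 and 2.88 in 3-week hearts, against 2.67, 2.59 and 2.53 in chow hearts, a rise of 0.48 ± 0.17 (limma adjusted p = 0.0478). Atp1b1, the beta subunit of the sodium pump, read -0.28, 0.05, -0.02 and 0.11 in 3-week hearts, against 0.50, 0.32 and 0.66 in chow hearts, and fell by 0.53 (SE 0.14, adjusted p = 0.00966). Fxyd1, phospholemman, the regulator of that pump, read 1.42, 1.33, 1.15 and 1.22 in 3-week hearts, against 1.76, 1.52 and 1.76 in chow hearts, and fell by 0.40 (SE 0.13, adjusted p = 0.037). The 3 genes did not overlap between these groups. At 3 weeks in MuRF1 -/- hearts the differences were 0.20 for Hrc, -0.29 for Atp1b1 and -0.34 for Fxyd1, and none of the 3 passed. The difference of the 3-week responses between genotypes passed for 0 of 31 genes (limma), and for 0 of all genes, with 0 of 31 and 330 of all genes at an unadjusted p under 0.05.

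After 8 weeks of fenofibrate in MuRF1 +/+ hearts, transcripts of 3 genes of the calcium store were lower. Casq2, the cardiac calsequestrin, read 0.60, -0.54 and -0.051 in 8-week hearts, against 1.25, 1.20 and 1.28 in chow hearts. It fell by 1.24 (SE 0.22, limma adjusted p = 0.00135), or 2.37-fold. Srl, sarcalumenin, read 0.26, -0.84 and -0.11 in 8-week hearts, against 0.97, 0.92 and 1.01 in chow hearts, and fell by 1.19 (SE 0.19, adjusted p = 0.000908). Asph, whose locus also encodes junctin, a partner of the ryanodine receptor, read 0.17, 0.026 and -0.34 in 8-week hearts, against 0.77, 0.98 and 0.86 in chow hearts, and fell by 0.92 (SE 0.20, adjusted p = 0.00521). All 3 were lower in every 8-week heart than in every chow heart, and replicate 2 was the lowest for Casq2 and Srl. Without the 2 arrays that stand apart, the differences were -0.97 for Casq2, -0.89 for Srl and -0.96 for Asph, all past the threshold. The other measured probes of Asph, directed at other transcripts of the locus, read lower or alike: the next brightest averaged 0.95 ± 0.55 (SD) in 8-week hearts, against 1.59 ± 0.068 in chow hearts.

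Slc8a1, the sodium-calcium exchanger, read 1.52, 0.64 and 1.54 in MuRF1 +/+ 8-week hearts, against 2.04, 1.92 and 2.52 in chow hearts, and fell by 0.93 (SE 0.29, limma adjusted p = 0.0371). The fall was 0.63 without the 2 arrays that stand apart, where -0.63 still passed (adjusted p = 0.0428). Camk2g read -0.56, -0.83 and -0.51 in 8-week hearts, against 0.14, -0.053 and -0.046 in chow hearts, and fell by 0.65 (SE 0.12, adjusted p = 0.00211). Camk2d read 0.65, 1.13 and 0.80 in 8-week hearts, against 1.33, 1.32 and 1.35 in chow hearts, and fell by 0.47 (SE 0.10, adjusted p = 0.00641). Camk2a read -0.20, 0.11 and 0.00048 in 8-week hearts, against 0.39, 0.30 and 0.30 in chow hearts, and fell by 0.36 (SE 0.11, adjusted p = 0.0385). The groups did not overlap for any of these 4 genes. A fit on these 2 groups alone, with its few arrays, gave 0 of 31 past the threshold in place of 8 (0.412% of all genes passed), a fit without replicate 1 of the 8-week hearts gave 13 (41.9%, against 32.6% of all genes), and fits without chow replicate 1 or 3 gave 5 each (16.1%, against 7.68% and 5.16%).

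In the same 8-week MuRF1 +/+ hearts 4 of 8 tested endothelial markers and 2 of 7 fibroblast markers rose, where 852 of all 14566 genes did. The fibroblast list averaged between -2.86 and -1.68 in these hearts, against between -2.89 and -2.76 in MuRF1 +/+ chow hearts. In RNA of whole hearts, fewer cells of a type and less RNA per cell cannot be told apart. The cardiomyocyte list averaged between 3.62 and 4.30 in MuRF1 +/+ 8-week hearts, against between 3.51 and 3.79 in chow hearts. Of its 8 markers 0 passed as lower, where 8.98% of all genes did, so this count is near the background. The part of cell composition in the 8-week falls was not tested.

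After 8 weeks in MuRF1 -/- hearts, none of the 31 genes passed. Casq2 read 0.48, 0.57 and 0.71 in MuRF1 -/- 8-week hearts, against 0.89, 1.28 and 0.92 in MuRF1 -/- chow hearts, a difference of -0.44 (limma adjusted p = 0.404). Gja1 read 0.74, 1.14 and 1.01 in 8-week hearts, against 1.67, 1.43 and 1.62 in chow hearts, a difference of -0.61 (adjusted p = 0.239). Camk2d, by its brightest probe, read 1.08, 1.14 and 1.00 in 8-week hearts, against 1.35, 1.38 and 1.47 in chow hearts, a difference of -0.33 (limma adjusted p = 0.117). Its other measured probes averaged 0.98, 0.40 and -0.11 in 8-week hearts, against 0.92, 0.48 and -0.20 in chow hearts. For each of these 3 genes every 8-week heart lay below every chow heart, yet none passed. The same order, also without passing, was seen for Atp1b1, Gja5, Itpr1, Itpr2, Jph2, Slc8a1 and Srl. How many of all genes were ordered in this way was not counted, so the order is not a result about these genes. When the 2 arrays that stand apart were left out of the fit, neither of which belongs to this comparison, Camk2d, Gja1, Casq2 and Srl passed (adjusted p = 0.0146, 0.012, 0.0409 and 0.0459), with the differences themselves unaltered.

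Whether the 8-week response differed between genotypes was tested directly. In the full fit 0 of 31 genes passed, and 0 of all genes, while 6 of 31 and 2520 of all genes had an unadjusted p under 0.05 in limma. The widest differences of response, MuRF1 -/- minus MuRF1 +/+, were 1.34 for Pln and -0.73 for Itpr1. The count depended on the arrays kept. Without MuRF1 +/+ 8-week replicate 2 it stayed at 0 of 31 (0.00687% of all genes), and also without the 2 arrays that stand apart (0.0755%). Without MuRF1 +/+ 8-week replicate 1, 5 genes passed: Casq2 at 1.10, Srl at 1.09, Asph at 0.94, Itpr1 at -0.92 and Gja5 at -0.87 (limma adjusted p between 0.0176 and 0.0456). That is 16.1% of the 31 genes, and 11.0% of all genes passed in the same fit, which kept replicate 2, an array that stands apart. With array weights, which gave that array 0.317 and replicate 2 of the same group 0.143, 5 genes also passed, namely Asph, Casq2, Srl, Itpr1 and Hcn2, where 13.9% of all genes passed.

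Between genotypes at matched diet, 0 of 31 genes passed on chow (0.0892% of all genes did), at 3 weeks (0.405%), at 8 weeks (0.357%) or over the mean of the diets (0.192%). At an unadjusted p under 0.05, limma gave 0 of 31 on chow (3.19% of all genes), 1 at 3 weeks (3.23%, against 5.40%), 12 at 8 weeks (38.7%, against 22.3%) and 3 over the mean of the diets (9.68%, against 6.30%). The nearest to the threshold was Asph at 8 weeks, which read 0.89, 0.57 and 0.88 in MuRF1 -/- hearts, against 0.17, 0.026 and -0.34 in MuRF1 +/+ hearts. The groups did not overlap, and the difference was 0.83 with an adjusted p of 0.0609. It passed without the 2 arrays that stand apart (0.87, adjusted p = 0.00557). Asph was lowest in MuRF1 -/- replicate 2, the heart of its group with low Ddx3y. With Y-linked signal as a covariate, 0 of 31 passed between genotypes at 8 weeks, and 0.0137% of all genes. The part of that signal in the 8-week genotype differences was not tested. On chow the differences ran from -0.37 for Pln to 0.24 for Atp2a2. At 8 weeks they ran from -0.65 for Itpr1 to 0.98 for Pln, and without MuRF1 +/+ 8-week replicate 1, 9 of 31 passed (29.0%, against 21.9% of all genes in that fit): Asph, Casq2, Jph2 and Srl higher in MuRF1 -/- hearts and Gja5, Gjc1, Itpr1, Itpr2 and S100a1 lower. That fit kept replicate 2, an array that stands apart, and without replicate 2 instead 0 of 31 passed (0.13% of all genes).

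Comparing 8 with 3 weeks of fenofibrate, 9 of 31 genes passed in MuRF1 -/- hearts (31.5% of all genes did) and 9 of 31 in MuRF1 +/+ hearts (17.8% of all genes). Without Cacnb2 the counts were 8 of 30 in each. Without the 2 arrays that stand apart they were 12 of 31 in MuRF1 -/- hearts (38.7%, against 41.1% of all genes) and 13 in MuRF1 +/+ hearts (41.9%, against 24.3%). Without MuRF1 -/- 8-week replicate 3 the first count was 5 (16.1%, against 22.1%). In MuRF1 -/- hearts the genes that were high at 3 weeks were lower again at 8 weeks: Itpr1 fell by 0.84 (SE 0.16, limma adjusted p = 0.000638), Itpr2 by 0.90 (SE 0.24, adjusted p = 0.00764), Gjc1 by 0.53 (SE 0.11, adjusted p = 0.00195) and Camk2a by 0.57 (SE 0.10, adjusted p = 0.000512). Jph2 rose by 0.81 (SE 0.26, adjusted p = 0.0246), with 2.24, 2.21 and 2.18 in 8-week hearts against 1.54, 1.74, 1.75 and 0.56 in 3-week hearts. Fxyd1 rose by 0.44 (SE 0.13, adjusted p = 0.0186), with 1.62, 1.62 and 1.75 in 8-week hearts against 1.25, 1.44, 1.38 and 0.84 in 3-week hearts. Camk2d fell by 0.33 by its brightest probe (limma adjusted p = 0.0143), and its dim probe was lower too (-0.11 at 8 weeks against 0.67 at 3 weeks). The other measured Camk2d probes averaged higher at 8 weeks (0.98 against 0.71, and 0.40 against 0.26). Cacnb2, by the 1 probe described above and with no test of its own, was at least 2.01-fold lower at 8 weeks. Gja1 fell by 0.67 (SE 0.22, adjusted p = 0.0296), but its groups overlapped: 0.74, 1.14 and 1.01 in 8-week hearts against 1.89, 1.93, 1.62 and 1.08 in 3-week hearts.

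In MuRF1 +/+ hearts all 9 were lower at 8 than at 3 weeks, where 9.65% of all genes were, and these hearts were alike in Ddx3y, which lay between -0.76 and -0.41 at 8 weeks and between -0.89 and -0.52 at 3 weeks. Srl fell by 1.09 (SE 0.18, limma adjusted p = 0.000509), with 0.26, -0.84 and -0.11 in 8-week hearts against 0.83, 0.91, 0.83 and 0.86 in 3-week hearts. Casq2 fell by 0.99 (SE 0.20, adjusted p = 0.00231), with 0.60, -0.54 and -0.051 in 8-week hearts against 0.98, 1.08, 0.94 and 0.99 in 3-week hearts. Gja1 fell by 0.98 (SE 0.22, adjusted p = 0.00523), with 0.90, 0.20 and 1.43 in 8-week hearts against 2.03, 1.82, 1.72 and 1.72 in 3-week hearts. No 8-week heart reached up to a 3-week heart for these 3 genes. Asph fell by 0.92, Camk2g by 0.66, Camk2a by 0.65 and Camk2d by 0.41, and Cacna2d1, the auxiliary subunit of the L-type channel, by 0.61 (limma adjusted p = 0.0255). The dim Camk2d probe averaged -0.079 at 8 weeks against 0.52 at 3 weeks, while its other measured probes hardly moved (0.60 against 0.65, and 0.21 against 0.23). Cacna2d1 read 0.62, 0.075 and 0.85 in 8-week hearts, against 1.26, 1.20, 0.91 and 1.14 in 3-week hearts. Cacnb2, by the same single probe and again as a description, was at least 1.79-fold lower at 8 weeks. All 9, Cacnb2 again as a description only, passed also with the Y-linked level in the fit. Because these hearts were alike in Ddx3y, that setting could change little here: 17% of all genes then passed, against 17.8% without it.

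When Y-linked signal entered the fit as a covariate, 0 of 31 genes passed in any of the 4 comparisons with chow, in 3 of which that signal and diet cannot be told apart. Of all genes, 0.529% to 3.24% passed in these 4 fits, so a count of 0 is near the background. Between 8 and 3 weeks in MuRF1 -/- hearts 3 of 31 then passed (9.68%, against 13.8% of all genes). In MuRF1 -/- 8-week replicate 2, the 1 heart of its group with low Ddx3y, Itpr1 read -0.46, Itpr2 -0.62, Cacnb2 -0.041 and Jph2 2.21, beside -0.48 and -0.61, -0.67 and -0.73, -0.018 and 0.052, and 2.24 and 2.18 in replicates 1 and 3. On the same array Gjc1 read 0.10, beside -0.25 and -0.34, and Camk2a read -0.094, beside 0.27 and -0.066. In the 3 MuRF1 +/+ 8-week hearts, where Ddx3y was low as well, Cacnb2 read -0.065, 0.11 and 0.12. There Jph2 read 1.81, 0.74 and 1.88, Gjc1 -0.15, 0.39 and 0.039, and Camk2a -0.20, 0.11 and 0.00048. Itpr1 read -0.24, 0.65 and 0.0021 and Itpr2 -0.73, 0.72 and -0.37. These are values of few hearts and chosen genes, and the part of the Y-linked signal in the 3-week differences was not tested. Xist lay between -4.05 and -2.72 in MuRF1 -/- 8-week hearts and between -0.20 and 0.20 in MuRF1 -/- 3-week hearts, and in MuRF1 +/+ mice between -2.70 and -0.90 in 8-week hearts and between -0.50 and 0.00089 in 3-week hearts.

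The 14 genes that passed in no comparison include the release channel Ryr2, its stabilising subunit Fkbp1b, the calsequestrin anchor Trdn, the SERCA pump Atp2a2, its inhibitor Pln, the pore of the L-type channel Cacna1c and the T-type channels Cacna1g and Cacna1h. The rest are Casq1, Calm3, S100a1, Gja5, Hcn2 and Jph1. Pln read 5.12, 2.65 and 4.44 in MuRF1 +/+ 8-week hearts, against 5.45, 5.20 and 5.54 in MuRF1 +/+ chow hearts. Its difference of -1.33 was the largest of the 31 in that comparison and did not pass, with 1 array far below the others. Atp2a2 read 3.31, 3.94 and 4.32 in MuRF1 +/+ 8-week hearts, against 3.84, 3.64 and 3.74 in chow hearts, and these groups overlapped. A second Atp2a2 probe went the other way, at 2.89 ± 0.56 (SD, n = 3) in 8-week hearts, against 3.63 ± 0.12 (n = 3) in chow hearts, so the deposited arrays do not fix a direction for this gene. At 3 weeks that second probe was lower without overlap in both genotypes, at 2.67 ± 0.19 (n = 4) in MuRF1 -/- 3-week hearts, against 3.28 ± 0.32 (n = 3) in chow hearts, and at 2.74 ± 0.26 (n = 4) in MuRF1 +/+ 3-week hearts, against 3.63 ± 0.12 (n = 3) in chow hearts. The third measured Atp2a2 probe differed by -0.085 and 0.028 in these comparisons. Ryr2 read 0.65, 0.12 and 0.24 in MuRF1 +/+ 8-week hearts, against 0.88, 0.69 and 1.16 in chow hearts, all lower, without passing, and only 1 of the 3 8-week values was well above background. The other measured Ryr2 probe, well above background on all 20 arrays, went the other way, at 0.60 ± 0.18 (n = 3) in 8-week hearts, against 0.49 ± 0.06 (n = 3) in chow hearts. By their brightest probes, in the 2 comparisons at 3 weeks, the 14 genes differed by -0.29 to 0.041 in MuRF1 -/- hearts and by -0.32 to 0.21 in MuRF1 +/+ hearts. Against the newborn pool, 19 of the 31 genes were above 0 on all 6 chow arrays and 7 were below 0 on all 6.

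Among the other genes of these pathways on the list, 53 were tested. Of these, in MuRF1 -/- hearts, 0 rose and 2 fell at 8 weeks (3.77%, against 2.23% of all genes), and 4 rose and 10 fell at 3 weeks (26.4%, against 26.5%). In MuRF1 +/+ hearts, 1 rose and 3 fell at 8 weeks (7.55%, against 14.8%), and 3 rose and 8 fell at 3 weeks (20.8%, against 24.5%). These shares lie near or below the background, and the genes below are named singly, not as a pathway result. At 3 weeks the store-operated channel Orai1 fell by 0.49 in MuRF1 -/- hearts and by 0.50 in MuRF1 +/+ hearts, and Nkx2-5, a cardiac transcription factor needed for the conduction system, fell by 1.07 and 1.18 (SE 0.21 each, limma adjusted p = 0.00145 and 0.000723). The plasma membrane calcium pump Atp2b1 rose by 0.52 and the calcineurin subunit Ppp3ca by 0.43 in MuRF1 -/- hearts, while in MuRF1 +/+ hearts calreticulin (Calr) rose by 0.60. At 8 weeks in MuRF1 -/- hearts, Calr fell by 0.55 and Calm2, a calmodulin gene, by 0.45. At 8 weeks in MuRF1 +/+ hearts, Bves, a Popeye domain protein of the membrane, fell by 0.96, Gja3, a connexin, by 0.64 and Orai1 by 0.31, while Ppp3ca rose by 0.34. Between genotypes, 1 of the 53 passed, Tbx18, a T-box factor of the sinus node, 0.20 higher in MuRF1 -/- hearts over the mean of the diets (adjusted p = 0.0431).

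**Figure D4:**
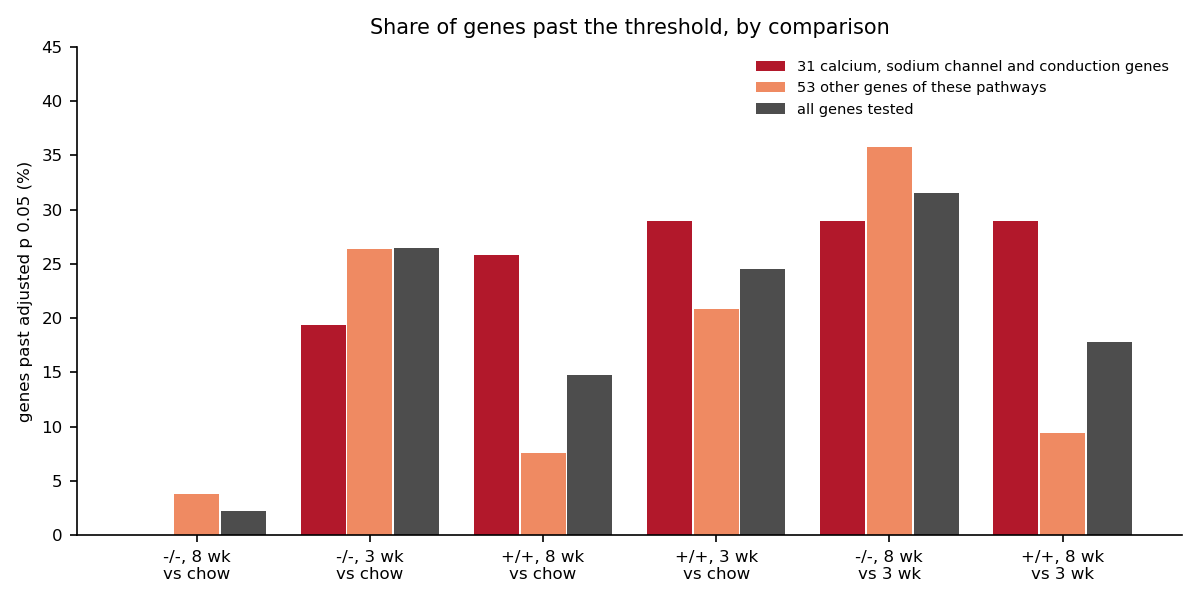
Share of genes past an adjusted p of 0.05 (%, y axis) in 6 comparisons (x axis), for the 31 genes described here, 53 other genes of the same pathways and all 14566 genes tested. At 8 weeks in MuRF1 +/+ hearts the 31 genes reached 25.8% and all genes 14.8%. In MuRF1 -/- hearts at 8 weeks the 31 genes lay at 0% and all genes at 2.23%. At 3 weeks the 31 genes lay at 19.4% in MuRF1 -/- and 29.0% in MuRF1 +/+ hearts, and all genes at 26.5% and 24.5%.

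Arrays with the same scan time were taken to share a slide, which gave 5 slides, each with several groups. All 41 called differences had one sign in every slide that held both groups. For 39 of the 41 the groups did not overlap, so this outcome was fixed beforehand. With slide as a block 31 of the 41 passed, among them the 4 of Cacnb2, which are a description only. Those that did not were Fxyd1 and Hrc in MuRF1 +/+ 3-week hearts, Camk2a in MuRF1 -/- 3-week hearts, Camk2a, Jph2 and Slc8a1 in MuRF1 +/+ 8-week hearts, Cacna2d1 between 8 and 3 weeks in MuRF1 +/+ hearts, and Camk2d, Gja1 and Jph2 between 8 and 3 weeks in MuRF1 -/- hearts. Within slides the Itpr2 rise at 3 weeks lay between 0.38 and 0.81 in MuRF1 -/- hearts and between 0.96 and 1.06 in MuRF1 +/+ hearts. The Srl fall at 8 weeks in MuRF1 +/+ hearts lay between -1.84 and -0.66 within slides, and that of Casq2 between -1.83 and -0.60. Leaving out 1 array of the 2 groups compared took the count of MuRF1 +/+ 3-week calls down to 5 without chow replicate 1 (16.1%, against 16.2% of all genes) and to 4 without chow replicate 3 (12.9%, against 13.7%).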

How the data were processed

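RNA of 20 hearts was hybridised to 20 2-colour Agilent arrays (design 014868), which the authors scanned with Feature Extraction 9.5.3.1, per the file headers. The deposited red and green intensity values were background-corrected here with normexp (offset 50), and 7 spots whose local background exceeded the signal by more than 50 were left out. Direction follows the channel labels (heart in Cy5, newborn pool in Cy3), while the protocol text names Cy3-CTP for the amplified RNA and no dye was swapped, so dye bias does not cancel. Log ratios of the 20 arrays correlate between 0.746 and 0.983.

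Arrays were loess-normalised in limma 3.58.1 (R 4.3.3), spots flagged as outliers were set to missing, and spots of a probe were averaged. Probes were named through RefSeq accessions or symbols, and a gene took its brightest heart probe. A gene entered the tests where the deposited flags put its heart signal well above background on 3 or more arrays. A model with 6 group means over all 20 arrays was fitted with eBayes (trend), and p-values were adjusted by Benjamini-Hochberg at 0.05. The probes of Gjc1 carry the older name Gja7 in the files. Other settings used the deposited log10 ratio of Feature Extraction and the authors' deposited log2 values of the series matrix, whose columns have medians between -0.006 and 0.0093 and slopes on the scanner ratio between 0.958 and 1.02. Their centring by gene was not found and no source used here gives their exact normalisation.

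All 33 genes are accounted for. Genes that passed in a comparison are given with every heart, the others by range. Of the other pathway genes, up to 4 per comparison with the smallest adjusted p were named, and 1 of these is not reported here. The genes and lists were chosen with earlier results of these data known. Hearts are biological replicates by their labels, which also give the numbers per group, whereas the series text speaks of 2 to 3 per condition.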

Additional observations from a re-analysis of the deposited data

Results flagged for a closer look

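Of 62 sets of 4 values (31 genes in each of the 3-week groups), 5 held an array whose gap to its nearest neighbour was, as a share of the range, above Dixon's critical value, and chance flags about 1 in 20. In MuRF1 -/- 3-week replicate 4, one of the arrays that stand apart, Casq2 read 0.20, while the other 3 hearts lay between 0.90 and 0.96. On the same array Slc8a1 read 0.83, against 1.84 to 1.97 in the other 3, and Calm3, a calmodulin gene, read 0.034, against -0.78 to -0.73. In MuRF1 +/+ 3-week hearts, S100a1 read 1.77 in replicate 4, against 1.96 to 1.98 in the others, and Camk2d read 1.28 in replicate 1, against 1.27 in each of the others, a gap of no size.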

How the results depend on the processing

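Counts are of the 31 genes past the threshold, and a percentage in brackets is the share of all genes past it in the same fit. At 3 weeks in MuRF1 +/+ hearts the count of 9 became 15 in a fit on the groups compared (40.2%) and 14 with array weights (46.6%). It became 4 to 7 when 1 array was left out. At 8 weeks in MuRF1 +/+ hearts the count of 8 became 5 with slide as a block (9.65%) and 0 in a fit on the groups compared (0.412%). It became 16 with array weights (37.7%), and 5 to 13 when 1 array was left out. At 3 weeks in MuRF1 -/- hearts the count of 6 became 3 with the series matrix values (15.3%), and 4 to 7 when 1 array was left out. When Y-linked signal was a covariate these 3 counts became 0, and 3 of 9 remained between 8 and 3 weeks in MuRF1 -/- hearts. At 8 weeks in MuRF1 -/- hearts the count of 0 became 4 in a fit on the groups compared (6.43%) and 4 without the 2 arrays that stand apart (6.97%). It became 5 with array weights (10.6%), and stayed at 0 when 1 array was left out. Between genotypes at 8 weeks the count of 0 became 1 with the heart channel alone (0.783%) and 1 with a strict filter on dim probes (24 genes, 1.46%). It became 1 without the 2 arrays that stand apart (0.288%), 7 with array weights (17.5%), and 0 to 9 when 1 array was left out. Over the mean of diets the count of 0 became 1 without the 2 arrays (0.556%) and 3 with array weights (3.7%). Between 8 and 3 weeks the count of 9 became 14 with array weights in MuRF1 -/- hearts (48%) and in MuRF1 +/+ hearts (32.6%). When 1 array was left out it became 5 to 8 in MuRF1 -/- hearts and 8 to 11 in MuRF1 +/+ hearts. For the difference of 8-week responses the count of 0 became 5 with array weights, and 0 to 5 when 1 array was left out. The share of all genes past the threshold moved as well, to between 10.6% and 46.6% in the 4 comparisons with chow and to 17.5% between genotypes at 8 weeks with array weights. The cause of these shifts was not tested. Normexp on all spots, Agilent's log ratio, no filter on dim probes and the mean of all probes kept each count within 1.5 times.

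None of the 41 called differences changed sign under the settings run, of which the strict filter on dim probes gave values for 37 and none for the 4 of Cacnb2, and with the Y-linked covariate 29 of the 41 no longer passed. Same-numbered arrays of different groups did not deviate together (correlations from -0.579 to 0.449, mean -0.00178, and 5 of 20 arrays closest to one of their own number), so the numbers do not pair the hearts. With the replicate block, 6 of 31 genes passed at 3 weeks (19.4%, against 20.5% of all genes) and 8 at 8 weeks (25.8%, against 15.2%) in MuRF1 +/+ hearts. In MuRF1 -/- hearts 4 passed at 3 weeks (12.9%, against 23.9%) and 0 at 8 weeks (against 2.14%). Dim signal limits Cacna1h, Cacnb2, Fkbp1b, Hcn2 and Jph1, which were well above background on 3 to 8 arrays.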
